A study of Mus musculus with 16 samples.

Results

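The genes of the 4 mammalian Hox clusters were followed through 16 Affymetrix Mouse Genome arrays of EB5 mouse embryonic stem cells (ESC) and of the mesodermal cells made from them. A probe set was taken as a member when the platform annotation gave it a single symbol of the form Hoxa, Hoxb, Hoxc or Hoxd followed by a number, and a gene with several probe sets was represented by the one that averaged highest across the 16 arrays. This gave 33 genes, measured by 48 probe sets, of 18193 genes and 45037 probe sets in all. By cluster, 9 members lie in Hoxa on mouse chromosome 6, 9 in Hoxb on chromosome 11, 7 in Hoxc on chromosome 15 and 8 in Hoxd on chromosome 2. Other genes of the clusters are not analysed here.

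Hox genes encode homeodomain transcription factors that give cells along the head-to-tail axis their regional identity. Within a cluster the genes lie in a row of numbered paralogue groups, and in the embryo the low-numbered, anterior genes are switched on first and closest to the head, the high-numbered, posterior genes later and nearer the tail. The first transcripts appear in the primitive streak and the mesoderm leaving it, under the influence of Wnt and Fgf signals, Cdx proteins and retinoic acid, whereas in ESC the clusters are held silent by Polycomb proteins.

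The study asked which genes Notch1 controls in different cell contexts. Its NERT line carries, under the pCAG vector, the Notch1 intracellular domain fused to a mutated estrogen receptor, which 4-hydroxytamoxifen (OHT) releases into action, and its control line carries the vector without that insert. Line and clone cannot be told apart. The conditions were NERT mesodermal cells with 50 µg/ml cycloheximide (CHX, an inhibitor of protein synthesis) and 1 µM OHT, with CHX alone, with OHT alone and with neither (2 arrays each), control mesodermal cells with and without OHT, NERT ESC in serum-containing medium (ESCm) with and without OHT, NERT ESC in serum-free medium (ESCe) with and without OHT, and control ESCm with and without OHT (1 array each). All treatments lasted 4 h. Mesodermal cells had been grown on collagen IV for 4 d per the labels (4 to 5 d in the methods) and were not sorted. Nothing in the labels ties the replicate arrays to separate cultures, so p-values measure the spread between arrays, which may be technical.

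Array medians lay between 42.0 and 46.9 dChip expression units, and between 46.2% and 48.7% of all values reached 50. The induction worked: Hes5, a Notch target gene, was higher with OHT in NERT mesodermal cells by 4.93 on the log2 scale (SE 0.22, limma adjusted p = 5.715e-06). The mesodermal label held for the NERT line by the summed level of 7 measured markers of primitive streak and early mesoderm. It was 3148 and 4060 without OHT, against 575 to 773 on the 6 ESC arrays. Against NERT ESC 5 of the 7 were higher and none lower (limma, adjusted p under 0.05), where 19.4% of all probe sets were higher. All 7 markers were at 50 or more in NERT mesodermal cells without OHT, but only Evx1 and Fgf8 were under 50 in every ESC condition. In these NERT cells Mesp1 and Kdr had means of 256 and 253, against 241 and 234 in NERT ESCe and 235 and 197 in NERT ESCm without OHT. The sum of 6 ESC markers was 5330 and 5524 in those NERT cells, against 9793 and 9882 in control mesodermal cells and 12074 to 13153 in ESC. In control mesodermal cells the mesodermal sum was 1490 and 1530, with Pdgfra under 50.

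Most Hox genes were low. A group mean above 50 was found for 14 of the 33 (42.42%), against 12763 of all 18193 genes (70.15%), and lowering or raising the bar to 25 or 100 gave 26 or 7 members. The value of 50 is a convention and no detection call. The 14 were Hoxa2, Hoxa3, Hoxa5, Hoxa7, Hoxa9, Hoxa11, Hoxb1, Hoxb2, Hoxb3, Hoxc5, Hoxc6, Hoxd8, Hoxd9 and Hoxd13. They made up 5 of 7 genes of the anterior paralogue groups 1 to 3, 5 of 12 of groups 4 to 8, and 4 of 14 of the posterior groups 9 to 13. Just inside the bar stood Hoxd13 (highest group mean 56.3), Hoxa9 (56.3) and Hoxa11 (59.2), and just outside it Hoxc10 (49.8), Hoxa13 (45.2) and Hoxc8 (40.8). The remaining members were Hoxa4, Hoxa10, Hoxb4, Hoxb5, Hoxb6, Hoxb7, Hoxb9, Hoxb13, Hoxc4, Hoxc9, Hoxc13, Hoxd1, Hoxd3, Hoxd10, Hoxd11 and Hoxd12. Together with the 3 just outside, they ran between 1.0 and 59.97 over the 16 arrays, so their changes are poorly measured.

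Of the 14, 6 passed a test in at least 1 comparison (Hoxa2, Hoxa5, Hoxb1, Hoxb2, Hoxc5 and Hoxd9), and the plot of values by array shows them. The share of all probe sets that passed in at least 1 comparison is not given here, so this count stands without a reference. Single comparisons called up to 40.5% of the probe sets tested. The other 8 of the 14 passed in none. Hoxb3, which acts in hindbrain patterning, stayed between 148 and 253 (median 225) over all 16 arrays. Hoxa3, needed for thymus and parathyroid formation, ran between 52.9 and 100.3 (median 75.9), Hoxc6, a gene of the thoracic region, between 67.6 and 102.5 (median 80.1), and Hoxd8 between 56.5 and 127.1 (median 74.6). Hoxa7 ranged between 29.1 and 95.2, Hoxa11 between 22.5 and 74.0, Hoxa9 between 31.3 and 56.3 and Hoxd13 between 33.9 and 56.9. On the values as deposited, no chosen probe set of these 8 genes passed the test in any comparison below. After quantile normalization Hoxa7 and Hoxb3 passed in 1 comparison each. The number of members with a group mean above 50 was 10 or 11 in the 4 NERT mesoderm conditions and 6 to 8 in the 2 control mesoderm and 6 ESC conditions. These counts rest on the brightest probe set of each gene. On the ESC arrays the other probe sets of Hoxa3, Hoxa5, Hoxa9, Hoxb3, Hoxc5, Hoxd8 and Hoxd13 were under 50. That of Hoxa5 ran between 4.82 and 16.3 there, and that of Hoxb3 between 19.3 and 35.7. For Hoxc6 another probe set ran between 57.1 and 82.0, and a further one was under 50.

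**Figure D1:**
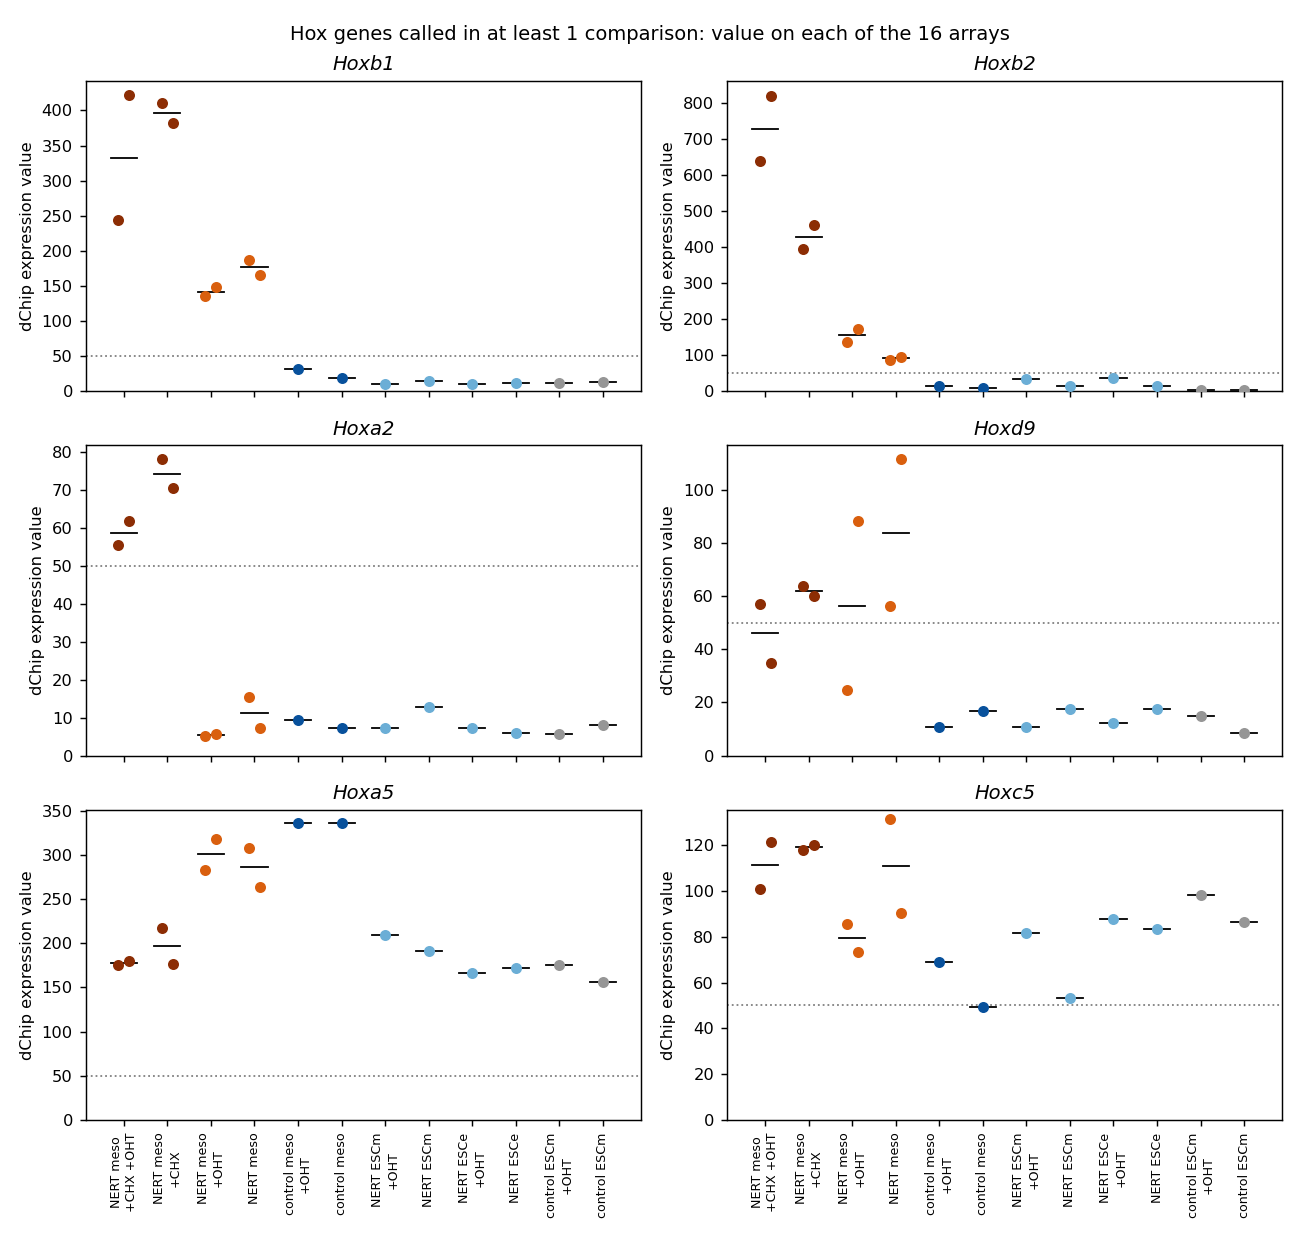
Expression value (dChip units, y axis) of the 6 Hox genes that passed a test in at least 1 comparison, on each of the 16 arrays (x axis: condition, meso for mesodermal cells); each point is an array, the short line is the group mean and the dotted line marks 50. Hoxb1 and Hoxb2 are above 50 only in NERT mesodermal cells and Hoxa2 only with CHX. Hoxa5, on its chosen probe set, is highest in mesodermal cells without CHX, in both lines.

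The promoters of 2 members are shown because both genes rose under CHX and both carry a motif that Hox and Pbx proteins bind as partners. They are RefSeq sequences of GRCm38.p6, 250 bases before to 50 bases after the gene's start, 5′ to 3′ on the gene's strand. The start is the one the promoter table uses, which for Hoxb1 lies inside the listed span of the gene. Capitals mark a match to TGATNNAT on either strand. Hoxb1 is at chr11:96365508-96365807 (plus strand) and Hoxa2 at chr6:52164782-52165081 (minus strand).
Hoxb1: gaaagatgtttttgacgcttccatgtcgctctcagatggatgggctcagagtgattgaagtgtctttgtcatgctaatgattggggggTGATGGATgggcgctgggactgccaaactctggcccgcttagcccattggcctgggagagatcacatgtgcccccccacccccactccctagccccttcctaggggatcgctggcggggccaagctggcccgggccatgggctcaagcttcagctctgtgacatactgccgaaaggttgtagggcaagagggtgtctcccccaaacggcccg
Hoxa2: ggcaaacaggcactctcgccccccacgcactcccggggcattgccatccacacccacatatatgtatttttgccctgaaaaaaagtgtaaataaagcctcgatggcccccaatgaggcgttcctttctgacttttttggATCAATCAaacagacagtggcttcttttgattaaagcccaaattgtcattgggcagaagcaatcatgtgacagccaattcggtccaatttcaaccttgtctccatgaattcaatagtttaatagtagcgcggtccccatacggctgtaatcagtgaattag
In Hoxb1 the match TGATGGAT ran over bases -162 to -155 before the start, and in Hoxa2 the match, ATCAATCA as read on the gene's strand, ran over -111 to -104. Hoxb2 is not among the members with an entry. TGATNNAT was present in 3 of 21 promoters of 19 members (Hoxa2, Hoxb1 and Hoxd11) and in 8.85% of all 32851 promoters of that length. GTGGGAA, the motif of the Notch partner RBP-J, was present in 1 of the 21 (Hoxa3) and in 6.38% of all. TGANTCA, the AP-1 motif, was present in 1 (Hoxd11) and in 7.81% of all, TATAAA in 2 (Hoxa10 and Hoxd13) and in 13.6% of all, and the direct repeat of AGGTCA that retinoic acid receptors bind, with 5 bases between the copies, in none of the 21 and in 3 of all promoters. All motifs were searched on both strands, and a match is a description of letters only.

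To see how the cluster genes stood without OHT, NERT mesodermal cells without OHT were compared with NERT ESC without OHT. Hoxb1 and Hoxb2, anterior genes that pattern the hindbrain, were the members with the largest differences, and Hoxd9, Hoxa5 and Hoxc5 were higher too. Of the 14 members tested, 5 were higher and none lower (limma, adjusted p under 0.05), where 29.3% of the 25847 probe sets tested were called, 19.4% as higher and 9.86% as lower. With quantile normalization, which shifted the median over all probe sets by -0.10, 3 members were higher and Hoxa7 was lower. The share of all probe sets called after quantile normalization is not given here or below. Member counts under it therefore stand without a reference. The fit used log2(value + 25), on which changes of low genes are understated, and only probe sets with a group mean of at least 50 were tested, so a gene could enter through the group where it is high.

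Hoxb1 had 187 and 166 in NERT mesodermal cells without OHT, against 11.2 and 14.6 in NERT ESC. No ESC array of either line exceeded 14.6. The difference was 2.41 on the log2 scale (SE 0.22, limma adjusted p = 2.662e-05), at least 7.06-fold when the ESC mean is set at 25, the constant added before the log.

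Hoxb2 had 87.5 and 94.2 in NERT mesodermal cells, against 13.2 and 12.96 in NERT ESC. It lies next to Hoxb1 in the cluster, at chr11:96351632-96354020 on GRCm38.p6, with Hoxb1 at chr11:96365746-96368254. The difference was 1.61 (SE 0.18, limma adjusted p = 0.0001157), at least 3.63-fold on the same footing.

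Hoxd9, a gene of the lower trunk and limb, had 56.3 and 111.7 in NERT mesodermal cells, against 17.4 in each NERT ESC array. The 2 mesodermal arrays lay farther from each other than the lower of them lay from ESC, and the difference of 1.31 (SE 0.35, limma adjusted p = 0.01629) dropped to 0.94 (adjusted p = 0.1231) without the second of them. Hoxa5, which patterns the neck and lung region, had 308 and 264 in NERT mesodermal cells, against 172 and 192 in NERT ESC (0.59, SE 0.18, limma adjusted p = 0.0285). Hoxc5 had 131.2 and 90.4, against 83.5 and 53.4 (0.54, SE 0.19, limma adjusted p = 0.04898). The calls of Hoxa5 and Hoxc5 both rested on single arrays. Without the first or the second NERT mesodermal array with neither agent, Hoxa5 gave 0.48 and 0.69 (limma adjusted p = 0.2175 and 0.07659). Hoxc5 gave 0.32 (limma adjusted p = 0.3782) without the first, and at an unchanged 0.54 it also missed the threshold without either array with OHT alone (limma adjusted p = 0.05045 and 0.05061) or with CHX alone (limma adjusted p = 0.07451 each), which serve only to estimate the spread.

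The inputs known to act on the clusters were looked at from fixed lists. For NERT mesodermal cells against NERT ESC, their counts stand beside 19.4% of all probe sets called as higher and 9.86% as lower. Both Cdx genes tested, homeobox activators of Hox transcription in the posterior embryo, were higher in NERT mesodermal cells than in NERT ESC (Cdx1 by 1.04, Cdx2 by 2.61 on the log2 scale). Of 8 posterior signal genes 5 were higher, led by Fgf8 (4.30) and Wnt3 (2.12), and Fgf4 was lower (-2.34). Of 10 genes of retinoic acid supply and response, Cyp26a1, which degrades retinoic acid, was higher (3.06), Rarg, a receptor, was lower (-1.26) and 8 were not called. Of 17 chromatin regulators 4 were lower, among them the Polycomb subunits Eed (-1.24) and Jarid2 (-0.89), and 2 were higher, Ezh1 (0.96) and Cbx2 (0.64). Of 8 genes of the TALE class, the homeodomain cofactors of Hox proteins, Pbx3 (1.44) and Meis3 (0.71) were higher. Evx1, a homeobox gene next to the Hoxa cluster, was higher by 3.90.

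In the control line mesodermal cells were compared with ESCm only, from 2 mesodermal and 2 ESC arrays with and without OHT. The test called 1 of 14 members, Hoxa5, as higher, where 13.3% of all probe sets were called, 8.33% as higher and 5% as lower. On its chosen probe set Hoxa5 had 337 and 336 in control mesodermal cells, against 156 and 176 in control ESC (0.92, SE 0.18, limma adjusted p = 0.006223). Its other probe set was under 25 on all these arrays and did not show the rise. Hoxb1 had 18.3 and 31.9, against 13.5 and 10.9 (0.42, SE 0.22, limma adjusted p = 0.2628), and Hoxb2 7.84 and 13.9, against 2.56 and 3.29 (0.36, SE 0.18, limma adjusted p = 0.2488). Neither reached 50 on any control array. Cdx1 and Cdx2 differed by 0.34 and 0.71 and were not called there (limma adjusted p = 0.3279 and 0.2956).

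The difference between the lines was itself tested, and 1 of 14 members passed, where 0.476% of all probe sets were called, 0.391% as higher and 0.0851% as lower. It also holds a difference of medium and of OHT. The NERT side used ESCe and ESCm without OHT, the control side ESCm alone, with and without OHT. The mesoderm against ESC change of Hoxb1 was larger in the NERT line than in the control line by 1.99 (SE 0.31, limma adjusted p = 0.02514). For Hoxb2 it was larger by 1.25 (SE 0.26, limma adjusted p = 0.08855), which missed the threshold, as did Hoxc5 at 1.03 (SE 0.26, limma adjusted p = 0.1622) and Hoxd9 at 1.24 (SE 0.49, limma adjusted p = 0.4291). The Hoxb1 call was lost without either NERT mesodermal array without OHT (limma adjusted p = 0.1017 and 0.05874) and without either with CHX alone (limma adjusted p = 0.06186 and 0.06158).

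Set directly against control mesodermal cells, both without OHT, NERT mesodermal cells had 2 of 14 members higher and none lower, where 1.28% of all probe sets were called, 0.99% as higher and 0.294% as lower. These were Hoxb1, with 187 and 166 against 18.3 on the single control array (2.22, SE 0.27, limma adjusted p = 0.00392), and Hoxb2, with 87.5 and 94.2 against 7.84 (1.82, SE 0.23, limma adjusted p = 0.004009). The single control array is assumed to vary like the replicated groups. This comparison shares its NERT arrays with the mesoderm against ESC and the CHX comparisons. A Notch readout differed as well: Nrarp, a Notch target gene, had a mean of 620.6 in NERT mesodermal cells without OHT, against 87.4 in control mesodermal cells (2.51, SE 0.27, limma adjusted p = 0.002136), while Hes5 did not pass (0.10, limma adjusted p = 0.9523). The part of this readout in the Hox difference was not tested. Of the listed inputs, Cyp26a1 (1.80) and Evx1 (1.71) were higher and Fgf4 (-2.03) was lower, while Cdx2 at 2.08 was not called (limma adjusted p = 0.07966). The marker sums given above moved with the same contrast: more mesodermal and less ESC signal in the NERT cells. Their part in the Hox difference was not tested, and in bulk samples fewer cells of a type and less RNA per cell cannot be told apart.

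CHX without OHT, compared with no treatment in NERT mesodermal cells, was tested next. Hoxb2, Hoxa2 and Hoxb1 rose, all of paralogue groups 1 and 2. No other chosen probe set was called, so 3 of the 12 members tested were higher and none lower, where 32.8% of 23971 probe sets were called, 21.1% as higher and 11.7% as lower. With quantile normalization the same 3 were higher and Hoxa5 and Hoxc10 were lower, with no share over all probe sets beside them. On the values as deposited, the share of members called, 3 of 12, was thus near that of all probe sets. Of the other genes of groups 1 to 3, Hoxa3 and Hoxb3 were tested and not called, and Hoxd1 and Hoxd3 were below the filter. Hoxa3 was called on another of its probe sets, as given below. Hoxa2 passed the filter only through the groups with CHX, where it was high. Its entry into the test was thus not independent of its change.

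Hoxb2 had 396 and 461 with CHX, against 87.5 and 94.2 without, a 4.72-fold difference of the means (1.97 on the log2 scale, SE 0.19, limma adjusted p = 7.783e-05). Hoxb1 had 411 and 382 with CHX, against 187 and 166 without (2.25-fold, log2 1.07, SE 0.23, limma adjusted p = 0.005541). Hoxa2, a gene of the second branchial arch and hindbrain, had 78.0 and 70.4 with CHX, against 15.4 and 7.24 without (at least 2.97-fold with the lower mean set at 25, log2 1.46, SE 0.16, limma adjusted p = 0.0001343). In none of the 3 did the groups overlap, which was also so, on the higher side, for 42.2% of all probe sets tested. Hoxa2 did not exceed 15.4 on any array without CHX, in ESC or in mesodermal cells of either line.

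With OHT present in both groups, CHX gave the same 3 members as higher and 1, Hoxa5, as lower, where 40.5% of all probe sets were called, 26.5% as higher and 14% as lower. With quantile normalization, which shifted the median over all probe sets by -0.14 here, 3 were higher and 2 lower, Hoxa5 and Hoxb3. No share over all probe sets stands beside these 2 counts. Hoxb2 had 638 and 820 with CHX and OHT, against 136 and 173 with OHT alone (2.07, SE 0.19, limma adjusted p = 3.76e-05). Hoxb1 had 244 and 421, against 135 and 148 (1.06, SE 0.23, limma adjusted p = 0.004384), and its 2 CHX arrays lay far apart. Hoxa2 had 55.3 and 61.8, against 5.24 and 5.76 (1.45, SE 0.16, limma adjusted p = 8.42e-05). These arrays are other ones than in the comparison without OHT.

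**Figure D2:**
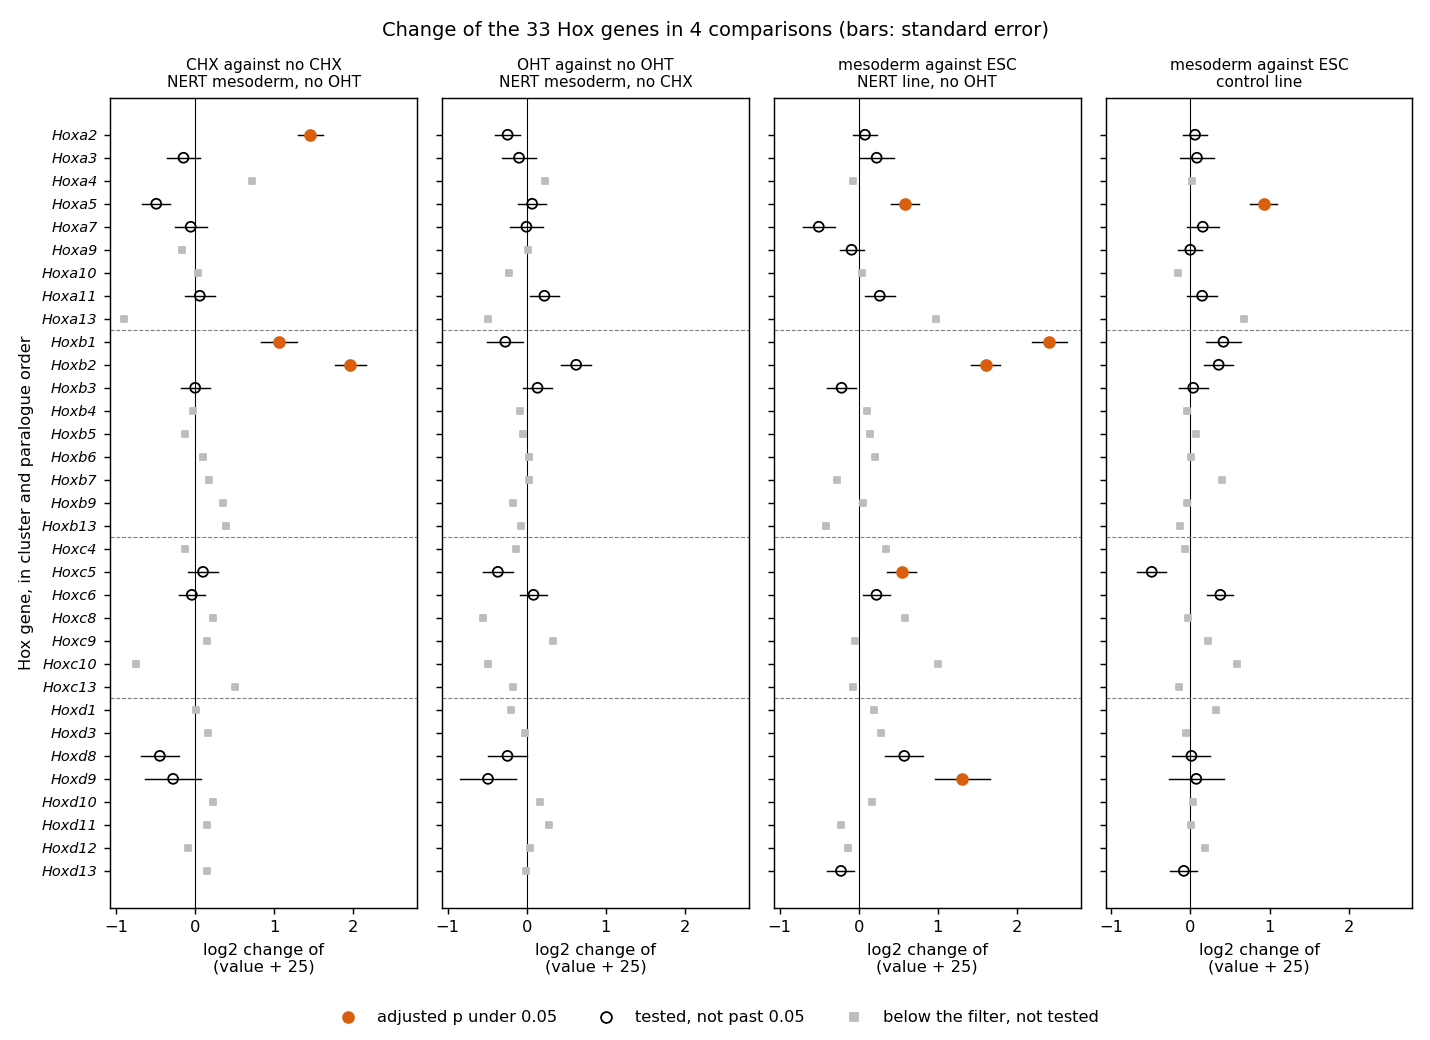
Change of each of the 33 Hox genes (y axis, by cluster and paralogue number) in 4 comparisons, as log2 change of value + 25 (x axis); filled circles passed limma at adjusted p under 0.05, open circles were tested and did not, grey squares were below the filter, and bars are standard errors. The filled points under CHX are Hoxa2, Hoxb1 and Hoxb2, no gene is filled under OHT, and Hoxa5 is the filled gene in the control line.

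Of the 8 TALE genes tested, 3 were higher and none lower under CHX without OHT: Meis1, with a mean of 178 with CHX against 37.9 without (1.69 on the log2 scale, SE 0.25, limma adjusted p = 0.0007415), Meis2, with 530.4 against 127 (1.88, SE 0.21, limma adjusted p = 0.0001444), and Pbx3, with 1066 against 597 (0.81, SE 0.23, limma adjusted p = 0.02006). With OHT in both groups the same 3 were higher, and Meis3 (-0.83, limma adjusted p = 0.01291) and Pknox2 (-0.51, limma adjusted p = 0.01979) were lower. There 26.5% of all probe sets were higher and 14% lower. Without OHT the shares over all probe sets were 21.1% higher and 11.7% lower. Beside these stand the TALE counts without OHT and those of the following lists. The retinoic acid list split, with Rarb, a receptor and a direct target of retinoic acid, higher by 1.45, Crabp2, a carrier of retinoic acid, higher by 0.92 and Cyp26a1 lower by 2.42 on the log2 scale, while 7 of 10 were not called. Both Cdx genes were lower (Cdx1 by 0.60, Cdx2 by 1.20 on the log2 scale), as were 5 of 8 posterior signal genes (Fgf8 -1.64, Wnt5a -1.38, Wnt3 -0.62, Tbx6 -0.58 and Lin28a -0.52). Of 17 chromatin regulators, Eed (0.87), Jarid2 (0.60) and Rnf2 (0.56) were higher and Pcgf2 (-0.64) and Men1 (-0.80) lower. Evx1 was lower (-1.73).

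Cell type markers shifted under CHX as well. Without OHT, the sum of the 7 mesodermal markers was 1211 and 1382 with CHX, against 3148 and 4060 without, and with OHT in both groups it was 992 and 1265 with CHX, against 3033 and 3220. Of these markers 6 of 7 were lower in the test without OHT, where 11.7% of all probe sets were. The sum of 6 neuroectodermal markers was 766 and 805 with CHX, against 292 and 390 without, and with OHT in both groups 840 and 1447 with CHX, against 723 and 926. OHT alone thus stood at a sum close to that of CHX alone, but with different genes high. Nes had a mean of 722 with OHT alone and 340 with CHX alone. Sox1, Pax6 and Zic1 had means of 3.35, 26.5 and 12.9 with OHT alone, against 178, 128 and 103 with CHX alone. Of the neuroectodermal markers 3 of 5 tested were higher in each CHX test. Of all probe sets, 21.1% were higher without OHT and 26.5% with OHT in both groups. The sum of 6 endodermal markers was 377 and 458 with CHX, against 256 and 310 without, and with OHT in both groups 403 and 583 with CHX, against 130 and 189. The sum of 6 ESC markers was 6024 and 7080 with CHX, against 5330 and 5524 without, and with OHT in both groups 6547 and 7900.5 with CHX, against 5861 and 6052. With CHX Neurog2 and Tubb3 were under 50, and in the untreated NERT mesodermal cells Sox1, Pax6, Zic1 and Neurog2 were. The part of these shifts in the Hox changes was not tested.

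The choice of probe set mattered, within the Hoxa cluster and outside it. Hoxa3 was flat on its chosen probe set, with 65.3 and 76.3 with CHX against 85.7 and 76.1 without (-0.15, SE 0.21, limma adjusted p = 0.632). On another of its probe sets it had 107.3 and 98.4 with CHX, against 26.9 and 28.1 without (1.28, SE 0.25, limma adjusted p = 0.002968), and with OHT in both groups 44.95 and 94.1 against 17.7 and 35.1 (0.85, SE 0.25, limma adjusted p = 0.01848). The 2 probe sets of 1 gene thus gave different answers in the same arrays. Outside Hoxa, the other probe sets of Hoxc5, Hoxb3 and Hoxd8 were below the filter and not tested. Those of Hoxc5 had means of 5.5 and 1.3 in NERT mesodermal cells without OHT, against 4.7 and 2.3 in NERT ESC. That of Hoxb3 ran between 19.3 and 42.7 over all arrays. That of Hoxd8 had a mean of 31.7 in NERT mesodermal cells without OHT, against 9.33 in NERT ESC.

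Hoxa5 was lower with CHX on its chosen probe set, whose identifier ends in x_at, a mark of probes that can match other transcripts. It had 217 and 176 with CHX against 308 and 264 without (-0.49, SE 0.18, limma adjusted p = 0.05601), and 176 and 179.8 against 283 and 318 with OHT in both groups (-0.68, SE 0.18, limma adjusted p = 0.01132). The call with OHT was lost without the second array with OHT alone (-0.60, limma adjusted p = 0.05818). Its other probe set was 66.7 and 53.0 with CHX against 29.5 and 43.2 without (0.47, SE 0.21, limma adjusted p = 0.1107). With OHT in both groups that probe set gave 0.56 (SE 0.21, limma adjusted p = 0.05526), the opposite sign. For mesoderm against ESC in the NERT line both probe sets differed by similar amounts (0.59 and 0.60, limma adjusted p = 0.0285 and 0.05122). In the control line the call of Hoxa5 rested on the chosen probe set alone. The other was too low to bear on the direction, with 7.95 and 8.32 in mesodermal cells against 9.65 and 10.5 in ESC. Without OHT the other probe set had a mean of 36.4 in NERT mesodermal cells, against 7.95 in control mesodermal cells. The chosen one had 286 against 337 there, the opposite direction. Neither the direction of Hoxa5 under CHX nor that between the lines is settled by these arrays.

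Hoxa9, a gene of the lower trunk and of blood progenitors, was under the filter on its chosen probe set in the mesodermal arrays. On another probe set it had 72.2 and 58.9 with CHX against 32.7 and 54.2 without (0.42, SE 0.22, limma adjusted p = 0.1658), and 64.4 and 67.9 against 19.8 and 41.5 with OHT in both groups (0.74, SE 0.22, limma adjusted p = 0.02038). Of the 11 members with several probe sets, 6 had probe sets of opposite sign for CHX without OHT (Hoxa3, Hoxa5, Hoxa9, Hoxc6, Hoxd8 and Hoxd13). The 3 members called in that comparison have 1 probe set each.

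**Figure D3:**
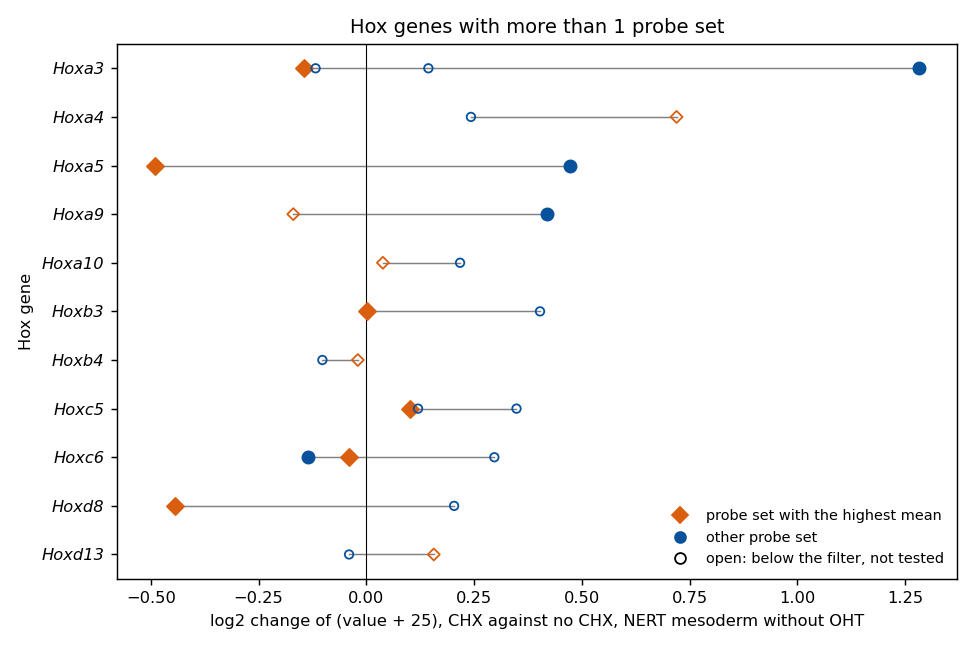
Change with CHX against no CHX in NERT mesodermal cells without OHT (x axis, log2 change of value + 25) for every probe set of the 11 Hox genes with more than 1 (y axis); diamonds are the probe sets with the highest mean, circles the others, and open symbols were below the filter. For Hoxa3 the probe sets range between -0.15 and 1.28 and for Hoxa5 between -0.49 and 0.47.

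The posterior members Hoxc10 and Hoxa13, both just under the bar, were lower with CHX in a fit without the filter on low values. Hoxc10, a gene of the lumbar region, had 22.1 and 16.3 with CHX alone, against 39.6 and 59.97 in NERT mesodermal cells with neither agent, and ran between 4.33 and 26.1 on the 6 ESC arrays. Hoxa13, the most posterior gene of its cluster, had 6.93 and 19.5 with CHX alone, against 42.1 and 48.4 with neither agent, and ran between 6.06 and 21.4 on the ESC arrays. In control mesodermal cells Hoxc10 had 29.6 and 44.8, against 7.97 and 26.1 in control ESC. Hoxa13 had 36.8 and 42.1 there, against 17.4 and 13.1. Without the filter, where 15.7% of all 45037 probe sets were called for mesoderm against ESC in the NERT line, 10.3% as higher and 5.4% as lower, Hoxc10 was higher by 1.01 (SE 0.21, limma adjusted p = 0.01049) and Hoxa13 by 0.98 (SE 0.25, limma adjusted p = 0.02535). In the CHX comparison without OHT, where 16.4% were called, 10.8% as higher and 5.56% as lower, Hoxc10 fell by 0.75 (SE 0.22, limma adjusted p = 0.04217) and Hoxa13 fell by 0.90 (SE 0.25, limma adjusted p = 0.03722) on the log2 scale, and Hoxc13 was higher by 0.51 (adjusted p = 0.03865). With OHT in both groups, where 21.5% were called, 14.2% as higher and 7.32% as lower, Hoxc10 and Hoxa13 differed by -0.33 and -0.31 and were not called (limma adjusted p = 0.3377 and 0.4327). OHT alone gave 17.8 and 39.7 for Hoxc10 and 13.5 and 39.6 for Hoxa13, so their low replicate under OHT was near the CHX arrays.

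Notch1 activation was the study's main question. In NERT mesodermal cells without CHX, OHT called none of the 12 members, where 0.893% of probe sets were called, 0.613% as higher and 0.28% as lower. By limma 1 of the 12 had an unadjusted p under 0.05. With CHX, again none of 12 was called, where 0.617% were, 0.567% as higher and 0.0501% as lower, and 1 had an unadjusted p under 0.05. In NERT ESC none of 14 was called, where 0.294% were, 0.282% as higher and 0.0116% as lower, and 1 had an unadjusted p under 0.05. In control cells none of 14 was called, where 0% were, and none had an unadjusted p under 0.05. The share of all probe sets with such a p is not given here, so these counts stand without a reference. For members other than Hoxb2 the changes without CHX lay between -0.49 (Hoxd9) and 0.22 (Hoxa11), and the SE over all 12 was 0.16 to 0.35.

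The member with the low unadjusted p was Hoxb2 each time. In NERT mesodermal cells with CHX it had 638 and 820 with OHT, against 396 and 461 without OHT (0.73, SE 0.19, unadjusted p = 0.003412, limma adjusted p = 0.2494). Without CHX it had 136 and 173 with OHT, against 87.5 and 94.2 without OHT (0.62, SE 0.19, unadjusted p = 0.008478, limma adjusted p = 0.2649). In NERT ESC it had 37.7 with OHT against 13.2 without in ESCe, and 32.9 against 12.96 in ESCm (0.66, SE 0.18, unadjusted p = 0.004371, limma adjusted p = 0.4281). In control cells it had 13.9 against 7.84 in mesodermal cells and 3.29 against 2.56 in ESCm (0.14, SE 0.18, limma adjusted p = 1). The ratio of means was 1.70 in NERT mesodermal cells with CHX and 1.70 without, 2.87 in NERT ESCe and 2.54 in NERT ESCm. In control cells it was 1.78 in mesodermal cells and 1.29 in ESCm. All control values, and the NERT ESC values without OHT, were under 25, so the ratios of ESC and of control cells are poorly measured. In both mesodermal NERT states the OHT arrays lay above the others, as they did for 16.4% of all probe sets tested with CHX and 13.4% without.

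Because Hoxb2 was higher with OHT in each NERT state, as it was in the control cells, a contrast over the 4 NERT states was added after its values had been seen. In it Hoxb2 was higher with OHT by 0.67 (SE 0.11, limma adjusted p = 0.01358), and it was the 1 member called of 14, where 1.32% of all probe sets were called, 1.19% as higher and 0.132% as lower. Chosen in this way, the call is weak: it was lost without the first array with CHX alone (adjusted p = 0.05099) or with 100 added before the log (0.39, adjusted p = 0.05286). The OHT response of Hoxb2 in NERT cells exceeded that in control cells by 0.48 (SE 0.24, limma adjusted p = 1), in a test over ESCm and mesodermal cells that called no member and 24 probe sets (0.0929%), all as higher in the NERT line. Of the 33 members, Hoxb2 was the 1 with higher means with OHT in all 4 NERT states, and 5 had lower means in all 4 (Hoxa7, Hoxb1, Hoxc8, Hoxc13 and Hoxd9). Of these, Hoxc8 and Hoxc13 were at low values, and Hoxb1 and Hoxd9 were under 25 on every NERT ESC array. Of all 18193 genes, 10.7% had higher and 6.3% lower means in all 4.

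**Figure D4:**
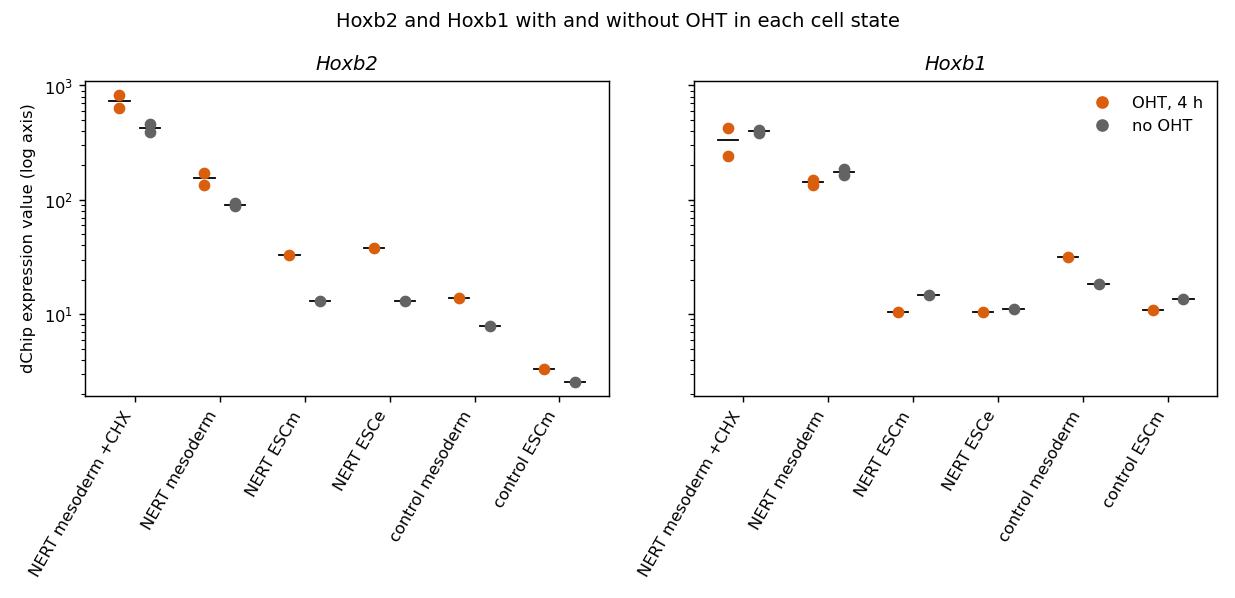
Expression value (dChip units, log axis) of Hoxb2 and Hoxb1 on each array with OHT and without OHT in the 6 cell states (x axis); points are arrays and short lines are means. Hoxb2 is higher with OHT in each NERT state and in both control states. All its control values, and its NERT ESC values without OHT, are under 25. Its neighbour Hoxb1 is not higher with OHT in the NERT states.

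Hoxb1, the neighbour of Hoxb2, did not share this pattern. It had 244 and 421 with OHT and CHX, against 411 and 382 with CHX alone, and without CHX 135 and 148 with OHT, against 187 and 166 without OHT (-0.28 and -0.27, SE 0.23 each, limma adjusted p = 0.9425 and 0.9923). Of the listed inputs, Cdx1 rose with OHT without CHX (mean 199 against 81.2, log2 1.07, SE 0.21, limma adjusted p = 0.04284) and Cyp26a1 fell by 1.49 on the log2 scale (mean 159 against 485, SE 0.23, limma adjusted p = 0.01295). No TALE gene, chromatin regulator or posterior signal gene was called there.

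Whether CHX altered the OHT response was tested as a difference, and none of 12 members passed, where 0.025% of all probe sets did, 0.0125% in each direction (by limma, 0 members with an unadjusted p under 0.05). For Hoxb2 the difference was 0.10 (SE 0.27, limma adjusted p = 0.9982). Between NERT mesodermal cells and NERT ESC the OHT responses of 14 members gave no call either, where 0.0116% of probe sets were called, with 1 unadjusted p under 0.05 by limma, for Hoxc5 (-0.62, SE 0.26, limma adjusted p = 0.9665). The 4 NERT ESC arrays in ESCe and ESCm, pooled over OHT, differed in no member of 14 and in 0% of probe sets, with no unadjusted p under 0.05 among the members by limma. The member differences between ESCe and ESCm lay between -0.29 (Hoxa11) and 0.27 (Hoxc5).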

How the data were processed

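RNA of the 16 samples was hybridised to Affymetrix Mouse Genome arrays. The deposited table holds 1 linear expression intensity per probe set and array, model-based values that the authors computed with dChip after invariant-set normalization, with the OHT-treated control mesoderm array as baseline. Detection calls were not used here. Values were not rescaled. Symbols came from the platform annotation (34945 probe sets with 1 symbol, 932 with several, 9160 with none), and 3 probe sets naming a Hox gene together with another were left out of the members. All 16 columns matched a sample, and 0 columns were left unmapped.

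Values were fitted as log2(value + 25) with limma 3.58.1 (R 4.3.3; lmFit, eBayes with trend), over probe sets with a group mean of at least 50 among the groups fitted, and adjusted by Benjamini-Hochberg over all of them (threshold 0.05). Treatments of NERT mesodermal cells used their 8 arrays (23971 probe sets), all other comparisons the 16 arrays in 12 groups (25847 probe sets). Each fit had 4 residual degrees of freedom, all from the NERT mesodermal pairs, so single arrays are assumed to vary like these. The number of arrays limits the precision. The fits were tested on simulated data.

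The members and the gene lists were chosen with earlier results of these data known. Every member with a group mean of 50 or more, or called in a comparison, was to be named with its values; the others by range. The lists, which hold no independent evidence, were Cdx activators, TALE cofactors, retinoic acid input, chromatin regulators, related homeobox genes, posterior signals, treatment checks and 4 marker lists. Alternatives were 5 or 100 added before the log, no filter, quantile normalization, eBayes without trend, a replicate block, the 16-array fit, additive fits, other probe sets and each replicated array left out. The contrast over the 4 NERT states, its difference from control cells, and the values given for Hoxc10, Hoxa13, Hoxc13 and the second probe sets were chosen after the data were seen.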

Additional observations from a re-analysis of the deposited data

Results flagged for a closer look

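The mesoderm against ESC change of Hoxb1 differed between the lines, as tested on the difference itself: it was larger in the NERT line than in the control line by 1.9938 on the log2 scale (SE 0.31, limma adjusted p = 0.02514). The call was lost without either NERT mesodermal array with neither agent (limma adjusted p = 0.1017 and 0.05874) or with CHX alone (limma adjusted p = 0.06186 and 0.06158). The 2 sides of this difference were also unlike in ESC medium and in OHT, as given above. No condition held enough arrays to look for single outlying arrays.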

How the results depend on the processing

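Over 15 alternatives each, Hoxa2, Hoxb1 and Hoxb2 kept their direction and stayed past the threshold in both CHX comparisons, with adjusted p of at most 0.0482. Hoxb1 and Hoxb2 did so too, over 13 alternatives each, for NERT mesodermal cells against NERT ESC and against control mesodermal cells. Counts of members moved as follows. For CHX without OHT, 3 became 6 without the filter (4 higher, 2 lower) and 5 with quantile normalization (3 higher, 2 lower), and 3 to 4 with an array left out. For CHX with OHT they were 3 to 5 with an array left out. For mesoderm against ESC in the NERT line, 5 became 3 to 5 with an array left out (3 without the second array with neither agent), and in the control line 1 became 2 with 5 added. For the difference between the lines, 1 became 0 with 100 added, 0 without the filter, 2 with quantile normalization and 0 to 1 with an array left out: it was 0 without either NERT mesodermal array with neither agent and without either with CHX alone. For OHT over the 4 NERT states, 1 became 0 with 100 added and was 0 to 1 with an array left out (0 without the first array with CHX alone). The number of members above the bar of 50, 14, was 26 at 25 and 7 at 100. On its other probe set, Hoxa5 turned to 0.5632 for CHX with OHT. For control mesoderm against ESC it gave -0.0818, at values under 25 on every control array, which is no measured reversal.

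Calls over all probe sets, behind the shares printed beside the members, moved with single arrays: for CHX without OHT 7871 became 3890 to 9363 (3890 without the first array with CHX alone, 4019 and 4460 without the first or second with neither agent), for OHT without CHX 214 became 63 to 287 (63 and 89 without the first or second array with neither agent, 115 and 83 without the first or second with OHT alone), and for OHT with CHX 148 became 82 to 611 (82 and 92 without the first or second array with CHX alone, 611 without the second with both agents).

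Replicate numbers are shared, but with 2 pairs nothing in the labels ties same-numbered arrays: deviations of same-numbered arrays correlated between 0.0074 and 0.51 over pairs of groups. With a replicate block, members called stayed at 0 for the 3 OHT comparisons of NERT mesodermal cells and at 4 for CHX with OHT, and became 4 (3 higher, 1 lower), against 3, for CHX without OHT, and all calls for OHT without CHX went to 339, against 214. Depth is not defined for these values; members under 50 are near the floor of the arrays.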

Other observations

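Transcripts of the clusters outside the members were also measured. Hoxb5os, an antisense gene of the Hoxb cluster, had 50.4 and 60.8 in NERT mesodermal cells without OHT, against 37.0 and 29.3 in NERT ESC without OHT, a log2 difference of 0.47 (SE 0.16, limma adjusted p = 0.0488). In control mesodermal cells it had 34.0 and 37.7, against 38.7 and 26.4 in control ESC (0.09, SE 0.16, limma adjusted p = 0.7895). The difference between the lines was 0.38 (SE 0.23, limma adjusted p = 0.6428). The chosen probe set of Hoxb5 itself stayed between 1.0 and 4.70 on all arrays. Hoxd3os1 (27.7 to 54.7 on its brighter probe set) and the brighter of the 2 probe sets shared by Hoxd4 and Hoxd3 (32.3 to 76.4) were called in no comparison. Both probe sets of Hoxa11os and the probe set shared by Hoxb8 and Hoxb7 were under 20 on every array.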
